A study of Mus musculus with 46 samples.

Results

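Transcripts of the major histocompatibility complex (MHC) class II genes and of their transactivator were examined in mouse synovial sarcomas, using 8 genes chosen by name from the 56980 genes of one count table and the 56941 of another. H2-Aa, H2-Ab1 and H2-Eb1 encode the chains of the class II molecules, H2-DMa, H2-DMb1 and H2-DMb2 encode the chains of the peptide-loading factor H2-DM, Cd74 encodes the invariant chain, and Ciita encodes the transactivator of all of them. Their levels were compared between 6 genotype groups and read against Csf1r, the receptor for colony stimulating factor 1, as a measure of macrophage content. All 8 genes were present in both tables. All 8 passed the filter on low counts in the first table and 7 in the second, where H2-DMb2 reached at most 9 counts in a library.

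The data are read counts from bulk RNA of 46 fresh frozen tumours, taken as 1 tumour per mouse because each label holds a different number. Every mouse carried a human synovial sarcoma fusion gene that Cre recombination switches on, either SS18::SSX2 (hSS2) or SS18::SSX1 (hSS1), and received TATCre, a cell-permeable Cre protein, by limb injection at 8 days of age. The hSS2 groups were 13 control tumours with the fusion alone and 8 tumours each with floxed Pbrm1 (Pbrm1-fl), Arid1a (Arid1a-fl) or Arid1b (Arid1b-fl), which the same Cre disrupts. The hSS1 groups were 5 control and 4 Pbrm1-fl tumours. PBRM1 belongs to the PBAF chromatin remodeler alone and the ARID1 proteins to canonical BAF, so the comparisons ask how disrupting either remodeler affects these tumours. Per the study's methods the mice were of mixed strain, and TATCre is a protein, so no promoter limits recombination to 1 cell type. A whole tumour also holds host cells in which the floxed gene may be intact.

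Library totals ran from 10613976 to 21294657 counts in hSS2 and from 10137668 to 14130024 counts in hSS1. Pbrm1 itself was at 94.6 to 141 counts-per-million (CPM, scaled to library size) in hSS2 Pbrm1-fl tumours against 170 to 318 CPM in hSS2 control tumours, and at 96.1 to 237 CPM in hSS1 Pbrm1-fl against 257 to 354 CPM in hSS1 control. Arid1a was at 230 to 280 CPM in Arid1a-fl tumours. In the control tumours it had a median of 508 CPM and a lowest value of 239 CPM, in the library labelled hSS2 control 9, which therefore goes against its label. Without it, too, no class II gene was called against the control tumours by edgeR. Arid1b had a median of 189 CPM in Arid1b-fl and 322 CPM in control tumours, with overlapping ranges. The numbers in the labels, read as mouse numbers, fall into ranges that coincide with the floxed gene. A difference between floxed groups and a difference between ranges therefore cannot be told apart, whereas each hSS2 floxed group could be compared with 4 or 5 control tumours of its own range.

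The 6 H2 genes lie on chromosome 17 of mm10, between 34119541 and 34316674 (GENCODE M21 annotation). H2-Aa spans chr17:34282744-34287823 on the minus strand. H2-Ab1 (chr17:34257689-34269419), H2-Eb1 (chr17:34305867-34316674), H2-DMa (chr17:34119541-34139101), H2-DMb1 (chr17:34153072-34160230) and H2-DMb2 (chr17:34143307-34151555) lie on the plus strand. Cd74 lies on chromosome 18, and Ciita at chr16:10480059-10528418 on the plus strand. The H2-DMa model overlaps Brd2 on the opposite strand and that of Ciita overlaps Dexi, also on the opposite strand. The libraries were directional but the strand setting of the counting was not given in the sources used here, so reads of these partners cannot be told apart with certainty. H2-DMb1 and H2-DMb2 are close paralogs, which makes the split of reads between them uncertain.

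Class II molecules present peptides from the endocytic pathway to CD4+ T cells and are made mainly by dendritic cells, B cells and macrophages. The chains assemble on the invariant chain, which blocks the groove until H2-DM exchanges its remnant for peptide. CIITA does not bind DNA by itself: it joins the factors RFX, CREB1 and NF-Y on an enhanceosome at the X and Y boxes of class II promoters, and interferon-gamma induces it, in part through IRF1. H2-Eb1 encodes the beta chain of I-E, whose alpha chain gene is annotated as the polymorphic pseudogene H2-Ea-ps.

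Promoter sequence (RefSeq, GRCm38.p6) was read for 5 of the H2 genes, to look for the boxes on which the enhanceosome forms, and is shown for 4 of them. A relation of the boxes to the joint variation of the genes was not tested. Their windows, from 250 bases before to 50 bases after the start, hold the Y box letters TGATTGG. Each line gives the stretch from 140 to 21 bases before the start, read 5′ to 3′ on the gene's strand. Capitals mark the Y box TGATTGG and the X box tail AACNGATG, with letters chosen after these windows had been read.
H2-Aa, minus strand, chr17:34287844-34287963: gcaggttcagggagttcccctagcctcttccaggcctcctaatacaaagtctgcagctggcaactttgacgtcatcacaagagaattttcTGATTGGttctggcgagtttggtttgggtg
H2-Eb1, plus strand, chr17:34305727-34305846: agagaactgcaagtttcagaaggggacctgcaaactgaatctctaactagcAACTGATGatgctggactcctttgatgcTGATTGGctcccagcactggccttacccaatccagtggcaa
H2-DMb1, plus strand, chr17:34153051-34153170: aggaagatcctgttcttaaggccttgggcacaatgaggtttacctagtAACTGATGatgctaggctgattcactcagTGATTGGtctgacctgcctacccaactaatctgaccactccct
H2-DMb2, plus strand, chr17:34145109-34145228: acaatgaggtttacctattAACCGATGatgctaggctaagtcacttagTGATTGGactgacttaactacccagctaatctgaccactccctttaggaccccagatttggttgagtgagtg
The Y box began 50 bases before the start in H2-Aa, 61 in H2-Eb1, 63 in H2-DMb1 and 92 in H2-DMb2. The X box tail began 28 bases upstream of the Y box in H2-Eb1 and 29 bases upstream in both H2-DMb genes, and these letters were not in the H2-Aa window. Read on both strands, TGATTGG was in 7.82% of 32851 promoter windows, AACNGATG in 2.32% and both in 0.186%. The Y box letters contain the reverse complement of CCAAT. Neither of the 2 windows listed for H2-DMa held either motif.

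Class II levels varied strongly from tumour to tumour within every genotype. H2-Aa ranged from 5.6 CPM in hSS1 control 4 to 381 CPM in hSS2 Pbrm1-fl 1, a 68.1-fold range over 46 tumours. Ciita ranged over 100-fold, from 0.752 CPM to 75.2 CPM, in the same pair of tumours. Cd74, the most abundant of the 8, ranged from 24.5 to 1020 CPM, or 41.4-fold. The H2-DM genes varied less: H2-DMa ran from 4.22 to 31.1 CPM (7.38-fold) and H2-DMb1 from 2.89 to 48.4 CPM (16.7-fold). H2-DMb2 was the lowest of the 8, from no count in hSS2 control 3 and hSS1 control 3 to 8.04 CPM. In 7 of the 8 genes the highest tumour was hSS2 Pbrm1-fl 1, and hSS2 control 4 held the highest H2-DMb2.

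**Figure D1:**
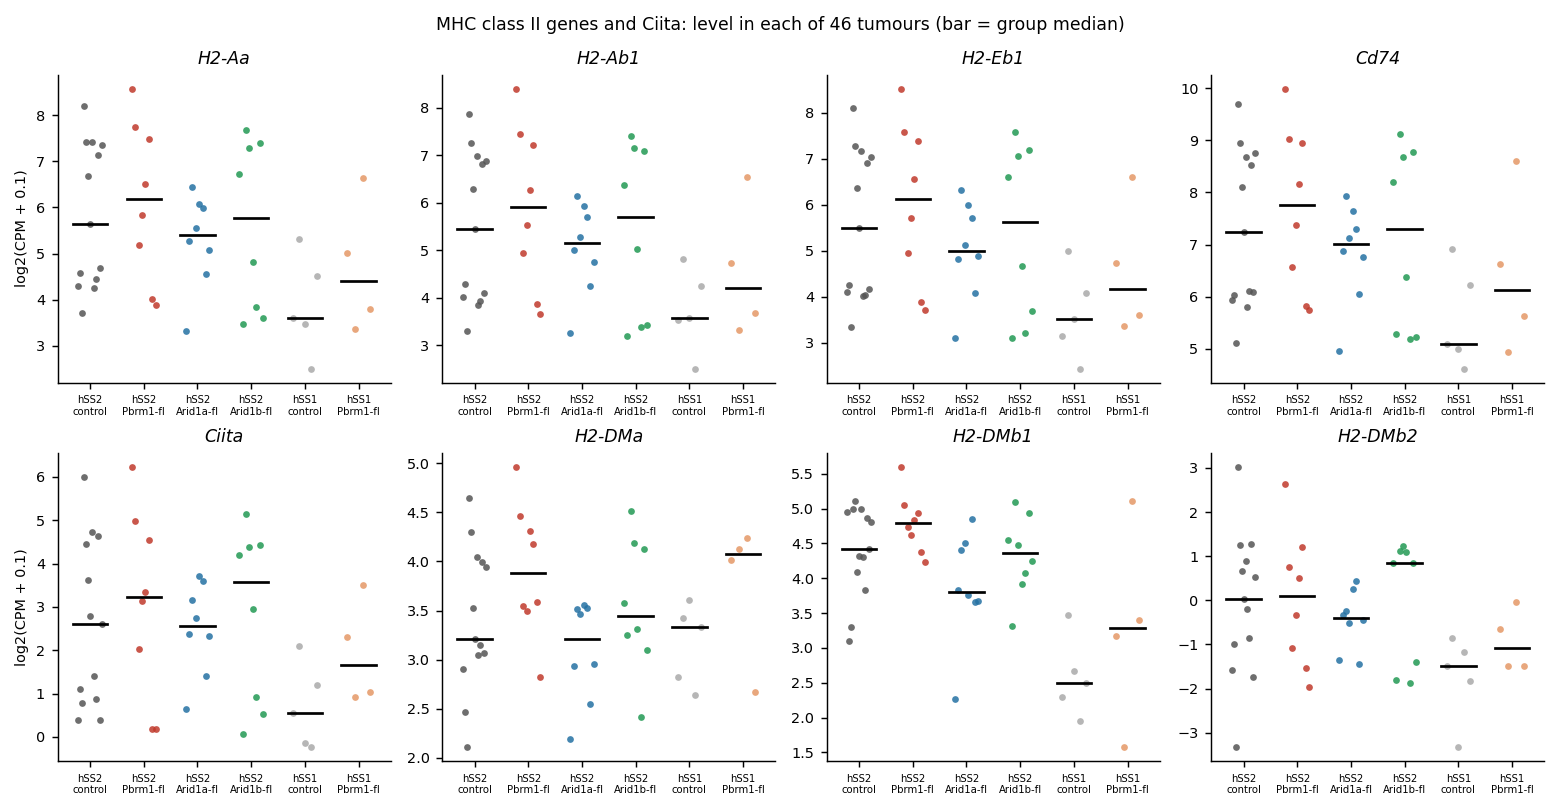
Level of each of the 8 genes in each of 46 tumours, as log2(CPM + 0.1), by genotype group, with a bar at the group median. Groups of the same fusion overlap in all 8 panels, and the H2-DMa and H2-DMb1 axes cover a narrower range than those of the chain genes.

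Per length, the mean over 46 tumours as RPKM (CPM divided by exon length in kilobases) was 127 for Cd74, 35 for H2-Eb1, 24.8 for H2-Ab1, 20.1 for H2-Aa, 11.8 for H2-DMb1, 3.57 for H2-DMa, 1.18 for Ciita and 0.647 for H2-DMb2. The order puts the invariant chain above the chains it escorts, the chains above the loading factor, and the transactivator near the bottom. Over the tumours, the ranges of neighbours in this order overlap for every pair.

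Within hSS2 groups the standard deviation (SD) of log2 CPM was 1.85 for Ciita, 1.62 for H2-Eb1, 1.57 for H2-Ab1, 1.56 for H2-Aa, 1.48 for Cd74 and 1.36 for H2-DMb2. The median over 20083 genes was 0.46. H2-DMa at 0.67 and H2-DMb1 at 0.63 stood closer to that median, and Csf1r was at 1.04. Only 2.55% of genes had a larger SD than Ciita, against 33.8% for H2-DMa.

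The 3 chain genes moved together across tumours. The ratio of H2-Aa to H2-Ab1 counts stayed between 0.868 and 1.5, a 1.73-fold span, while each gene alone spanned more than 60-fold. The ratio of H2-DMa to H2-Aa spanned 20.8-fold, from 0.0816 in hSS2 Pbrm1-fl 1 to 1.7 in hSS1 Pbrm1-fl 2. H2-DMa counts exceeded those of H2-Aa in 3 tumours and H2-DMb1 counts exceeded them in 6. Ciita CPM as a percent of H2-Aa CPM had a median of 12.9% and ran from 3.68% in hSS2 control 13 to 27.1% in hSS2 Arid1b-fl 5.

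By group, H2-Aa had a lowest, median and highest level of 13.1, 49.9 and 291 CPM in hSS2 control, 14.6, 73.9 and 381 CPM in Pbrm1-fl, 9.99, 42.7 and 87.1 CPM in Arid1a-fl, and 11, 66.8 and 205 CPM in Arid1b-fl. Ciita gave 1.2, 5.97 and 64.3 CPM in hSS2 control, 1.03, 9.36 and 75.2 CPM in Pbrm1-fl, 1.47, 5.82 and 13.1 CPM in Arid1a-fl, and 0.941, 13 and 35.3 CPM in Arid1b-fl. For both genes the Arid1a-fl tumours lacked the high values seen in the other 3 hSS2 groups. Their lowest H2-Aa, in Arid1a-fl 1, was the lowest of the hSS2 tumours, and their lowest Ciita was not.

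In hSS1 control tumours H2-Aa was at 12.1, 39.8, 11.1, 5.6 and 22.7 CPM, and in hSS1 Pbrm1-fl tumours at 32.1, 10.2, 99.4 and 13.8 CPM. The groups overlap, and the value of 99.4 CPM belongs to hSS1 Pbrm1-fl 3, which also held the highest Csf1r of the hSS1 tumours, 58.2 CPM. Ciita was at 1.36, 4.15, 0.811, 0.752 and 2.19 CPM in hSS1 control and at 4.84, 1.79, 11.2 and 1.95 CPM in hSS1 Pbrm1-fl. The hSS1 and hSS2 libraries stand in separate tables, so levels are set side by side without a test between them.

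Levels of the class II genes rose with Csf1r across the 37 hSS2 tumours. All 8 genes passed the test of a slope on log2 Csf1r within groups (edgeR quasi-likelihood F-test, Benjamini-Hochberg adjusted p under 0.05), where 24.1% of 20082 genes were called in either direction and 14% were called higher. The slope, in log2 units of the gene per doubling of Csf1r, was 1.54 for Ciita (standard error, SE, 0.19, adjusted p = 7.94e-08) and 1.29 for H2-Eb1 (SE 0.15, adjusted p = 3.22e-08). H2-DMb2 gave 1.29, H2-Ab1 1.24, H2-Aa 1.22 and Cd74 1.16. The loading genes were shallower, at 0.46 for H2-DMa (95% interval 0.3 to 0.61) and 0.28 for H2-DMb1 (0.11 to 0.46, adjusted p = 0.0142). The intervals of these 2 slopes do not reach those of the other 6 members, of which the lowest bound is 0.87, for Cd74. Without hSS2 control 4 and Pbrm1-fl 1, left out after the data were seen because their B cell markers were highest, the H2-DMb1 slope was 0.25 with an adjusted p of 0.0665.

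**Figure D2:**
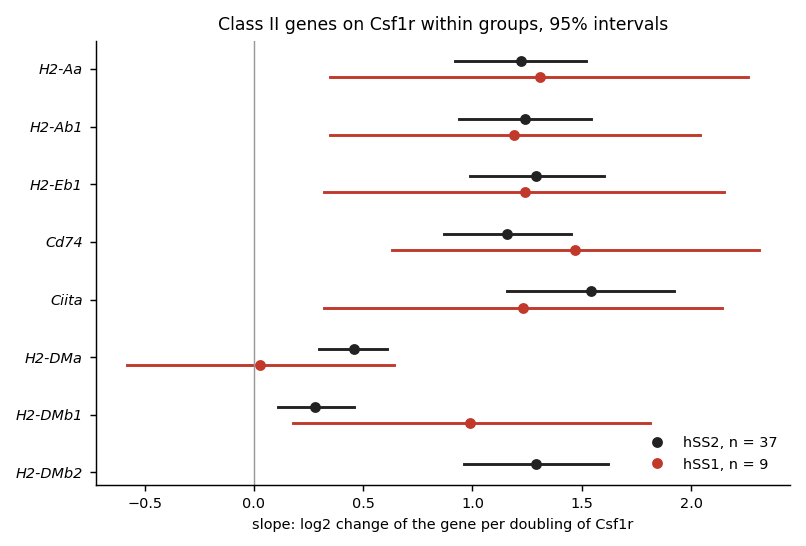
Slope of each gene on log2 Csf1r within genotype groups, in log2 units per doubling of Csf1r, with 95% intervals, for 37 hSS2 and 9 hSS1 tumours. In hSS2 all 8 intervals lie above 0, with H2-DMa at 0.46 and H2-DMb1 at 0.28 lowest. H2-DMb2 was not tested in hSS1.

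As a plain correlation of log2 CPM over the 37 hSS2 tumours, H2-Aa with Csf1r gave a Pearson's r of 0.8 and a Spearman's rho of 0.8. The two-sided permutation p of each was 1e-05, the smallest that 100000 permutations can give (adjusted over 15 relations, 2.5e-05 for r and 2.14e-05 for rho). Ciita gave an r of 0.81 and a rho of 0.82 with the same p-values. H2-DMb1 gave the lowest values of the 8, an r of 0.48 (permutation p = 0.00262, adjusted 0.00491) and a rho of 0.58 (permutation p = 0.00019, adjusted 0.000356). Without the 2 tumours farthest from the median of Csf1r, r was 0.79 for H2-Aa, 0.8 for Ciita and 0.52 for H2-DMb1. Within mouse number ranges, r for H2-Aa was 0.6 under 1000 (n = 13), 0.79 from 1000 to under 2000 (n = 12) and 0.89 at 2000 and over (n = 12). For H2-DMb1 these were 0.31, 0.63 and 0.46.

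In the 9 hSS1 tumours no member passed the slope test, and neither did any of 17785 genes (0%), although 6 of 7 members had an unadjusted p under 0.05 in edgeR, as did 2326 genes. Cd74 gave a slope of 1.47 (95% interval 0.63 to 2.31, adjusted p = 0.206) and H2-DMa 0.03 (interval -0.58 to 0.64, adjusted p = 0.972). The correlation with Csf1r was an r of 0.67 for Cd74 (exact permutation p = 0.046, adjusted 0.0766) with a rho of 0.42 (exact permutation p = 0.27, adjusted 0.404). For H2-Aa it was an r of 0.58 (exact permutation p = 0.099, adjusted 0.124) with a rho of 0.42 (exact permutation p = 0.27, adjusted 0.404). Without the 2 tumours farthest from the median of Csf1r, r was 0.15 for Cd74 and 0.04 for H2-Aa. Leaving out these tumours also narrows the range of Csf1r, so the drop does not decide whether the relation rests on them. The slope was also fitted without only the hSS1 Pbrm1-fl tumour of highest Csf1r. It was then 1.22 for Cd74 (SE 0.72), 1.07 for H2-Aa (SE 0.83) and 1.38 for Ciita (SE 0.82). With that tumour, H2-Aa was at 1.31 and Ciita at 1.23. The slopes of H2-Ab1 (0.66), H2-Eb1 (0.72) and H2-DMb1 (0.4) were lower than with it, at 1.19, 1.24 and 0.99. H2-DMa was at -0.47.

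Some tumours departed from the relation. The summed CPM of H2-Aa, H2-Ab1 and H2-Eb1 divided by that of Csf1r had a median of 3.79 over 46 tumours and ranged from 0.482 in hSS1 control 4 to 7.92 in hSS2 control 4. hSS2 Arid1a-fl 1 (0.737) and Arid1b-fl 5 (0.903) had low ratios as well. In Arid1b-fl 5, Csf1r was at 95.2 CPM, the level of Arid1b-fl 3 at 95.1 CPM, but H2-Aa was at 28.2 CPM against 205 CPM there. Arid1b-fl 5 also held the highest summed neutrophil markers of its group, 89.7 CPM, of which Csf3r was 73.1 CPM, where the group median was 3.98 CPM. It was highest of its group for summed macrophage markers too (1020 CPM, group median 464 CPM) and for endothelial markers (502 CPM, group median 228 CPM). The part of these cell types in the low ratio was not tested.

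**Figure D3:**
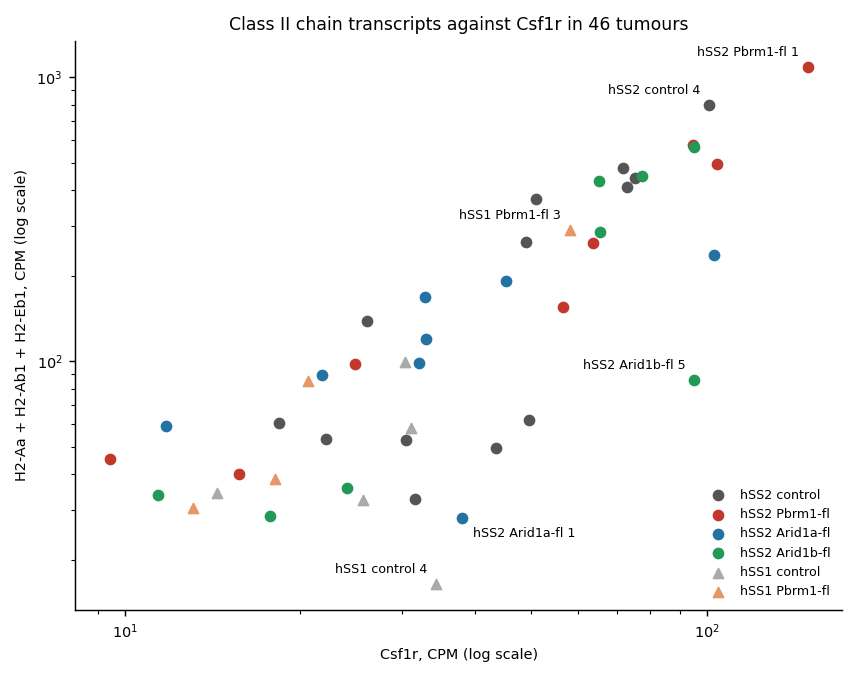
Summed CPM of H2-Aa, H2-Ab1 and H2-Eb1 against Csf1r CPM in 46 tumours, both on log axes, coloured by group, with hSS1 as triangles. Class II transcripts climb with Csf1r, and Arid1b-fl 5, Arid1a-fl 1 and hSS1 control 4 lie low for their Csf1r, at ratios of 0.903, 0.737 and 0.482.

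In hSS2 Pbrm1-fl tumours the class II genes overlapped the control tumours and none was called. None of the 8 passed the test, with 7.35% of all genes called in this comparison, none had an unadjusted p under 0.05 and DESeq2 called none. This and the next 2 comparisons share the 13 control tumours. The log2 fold changes were 0.42 for H2-Aa (95% interval -0.85 to 1.69), 0.53 for H2-Ab1, 0.54 for H2-Eb1, 0.41 for Cd74 and 0.55 for Ciita (interval -0.97 to 2.07). H2-DMa, at 0.48 (SE 0.29), had the smallest adjusted p, 0.326 (edgeR). The median of the 8 was 0.45, against -0.004 over all genes, and the intervals allow changes of more than 2-fold in the chain genes.

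For 5 of the 8 genes the direction rested on hSS2 Pbrm1-fl 1. Without that tumour H2-Aa was at -0.08, H2-Ab1 at -0.02, H2-Eb1 at 0.02, Cd74 at -0.07, Ciita at -0.2 and H2-DMb2 at -0.7, while H2-DMa was at 0.29 and H2-DMb1 at 0.2. Against the 4 control tumours of its own mouse number range, H2-Aa was at 0.51 (adjusted p = 0.898, edgeR), Ciita at 0.16 and H2-DMb2 at -0.47.

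In Arid1a-fl tumours all 8 genes had negative log2 fold changes against hSS2 control, and none passed the test (3.17% of all genes called, no member with an unadjusted p under 0.05, none called by DESeq2). H2-DMb2 was at -1.14, H2-Eb1 at -1.04, H2-Aa at -1 (95% interval -2.33 to 0.33), Ciita at -0.96, Cd74 at -0.93 and H2-Ab1 at -0.92. H2-DMb1 was at -0.48 (SE 0.27, adjusted p = 0.271, edgeR) and H2-DMa at -0.43. The median was -0.94 against -0.043 over all genes. Against the 5 control tumours of its own mouse number range, H2-Aa was at -0.67, Cd74 at -0.57 and Ciita at -0.07. Csf1r was at -0.32 in this comparison (interval -1.19 to 0.56).

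In Arid1b-fl tumours the 8 log2 fold changes lay between -0.27 for H2-DMb2 and 0.11 for H2-DMa, with none called (0.0548% of all genes called, none with an unadjusted p under 0.05, none by DESeq2). The 95% interval was -1.38 to 1.2 for H2-Aa and -1.52 to 1.55 for Ciita. Against control tumours of its own range H2-Aa was at -0.49 and Ciita at -0.32.

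Pbrm1-fl and Arid1a-fl hSS2 tumours, set directly against each other, gave the widest differences of the 6 pairs of hSS2 groups, with no call by the main test. The log2 fold change of Pbrm1-fl over Arid1a-fl was 1.58 for H2-Eb1 (unadjusted p = 0.0412, adjusted 0.165), 1.51 for Ciita, 1.45 for H2-Ab1, 1.42 for H2-Aa, 1.34 for Cd74 and 1.16 for H2-DMb2. H2-DMa was at 0.91 (95% interval 0.25 to 1.58, adjusted p = 0.0605) and H2-DMb1 at 0.83 (0.23 to 1.43, adjusted p = 0.0586). None was called by edgeR, with 12.3% of all genes called. An unadjusted p under 0.05 was found for 3 of 8 members and for 5374 of 20083 genes. DESeq2 called 2, H2-DMa (0.9, adjusted p = 0.0401) and H2-DMb1 (0.82, adjusted p = 0.0391). A fit on these 16 tumours alone called H2-DMa (0.92, adjusted p = 0.0483). Leaving out Pbrm1-fl 8 called H2-DMa and H2-DMb1, and leaving out Arid1a-fl 6 called H2-DMb1, at an adjusted p of 0.0338, 0.0459 and 0.0245 by edgeR. Leaving out Pbrm1-fl 1 instead put H2-Aa at 0.91, H2-Ab1 at 0.9, Ciita at 0.74 and H2-DMb2 at 0.43, with an adjusted p of 0.149 for H2-DMa (0.72) and 0.131 for H2-DMb1 (0.68) by edgeR.

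H2-DMa was at 6.96 to 31.1 CPM in Pbrm1-fl tumours, with a median of 15 CPM, and at 4.46 to 11.7 CPM in Arid1a-fl tumours, with a median of 9.28 CPM. H2-DMb1 was at 18.8 to 48.4 CPM (median 27.5 CPM) and at 4.7 to 28.8 CPM (median 13.9 CPM). The ranges overlap for both genes. Csf1r itself was higher by 0.71 on the log2 scale in Pbrm1-fl, which did not pass the test (adjusted p = 0.356, edgeR).

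With log2 Csf1r as a covariate, added after the data were seen, the 6 other members came to between -0.43 for Ciita and 0.27 for H2-Eb1, while H2-DMa stayed at 0.63 (adjusted p = 0.0638, edgeR) and H2-DMb1 at 0.67 (adjusted p = 0.0845). These 2 are the members with the shallowest slopes on Csf1r. Pbrm1-fl mice were all numbered 2000 and over and Arid1a-fl mice all under 1000. Taken as a difference of the 2 comparisons with control tumours of the same range, H2-DMa was at 1.01 (SE 0.56, adjusted p = 0.311) and H2-DMb1 at 0.96 (SE 0.5, adjusted p = 0.284). Of the lymphocyte markers tested, 1 of 2 for B cells and 1 of 7 for T cells were called higher in Pbrm1-fl and none lower, where 12.3% of all genes were called, so that the T cell share is near that of all genes. Summed B cell markers were at 3.04 to 42.8 CPM against 1.62 to 5.61 CPM in Arid1a-fl. Their part in the class II values was not tested. In bulk tissue, fewer cells of a type and less RNA per cell cannot be told apart.

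Pbrm1-fl minus Arid1b-fl gave 0.28 to 0.6 and Arid1a-fl minus Arid1b-fl gave -0.99 to -0.39, with none of 8 called by edgeR or DESeq2 and none with an unadjusted p under 0.05 in either (4.37% and 0.0996% of all genes called).

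In hSS1 tumours the 7 testable members were at positive log2 fold changes in Pbrm1-fl, from 0.68 for H2-DMa to 1.41 for Ciita (SE 0.7, 95% interval -0.17 to 2.99, adjusted p = 0.335, edgeR). H2-Aa was at 1.09, H2-DMb1 at 1.17, H2-Ab1 at 1.23, H2-Eb1 at 1.3 and Cd74 at 1.31. None passed the test, none had an unadjusted p under 0.05 and DESeq2 called none, with 0.00562% of all genes called. Csf1r was at 0.03 (interval -0.97 to 1.02). Without hSS1 Pbrm1-fl 3, which held the highest H2-Aa, H2-DMb1, Cd74 and Ciita of that group, H2-Aa was at 0.05, Cd74 at 0.08, H2-Ab1 at 0.13, H2-Eb1 at 0.16 and H2-DMb1 at 0.26, while Ciita was at 0.64 and H2-DMa at 0.55.

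The effect of floxed Pbrm1 was not shown to differ between the fusions. The difference of the effects, hSS1 minus hSS2, lay between 0.2 for H2-DMa and 0.91 for Cd74 (interval -1.29 to 3.11), with none called by edgeR or DESeq2, none with an unadjusted p under 0.05 and 2.86% of all genes called. Without hSS1 Pbrm1-fl 3 the difference was negative for 5 of the 8 genes, at -0.4 for H2-Ab1, -0.38 for H2-Eb1, -0.37 for H2-Aa, -0.34 for Cd74 and -0.09 for H2-DMb1.

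**Figure D4:**
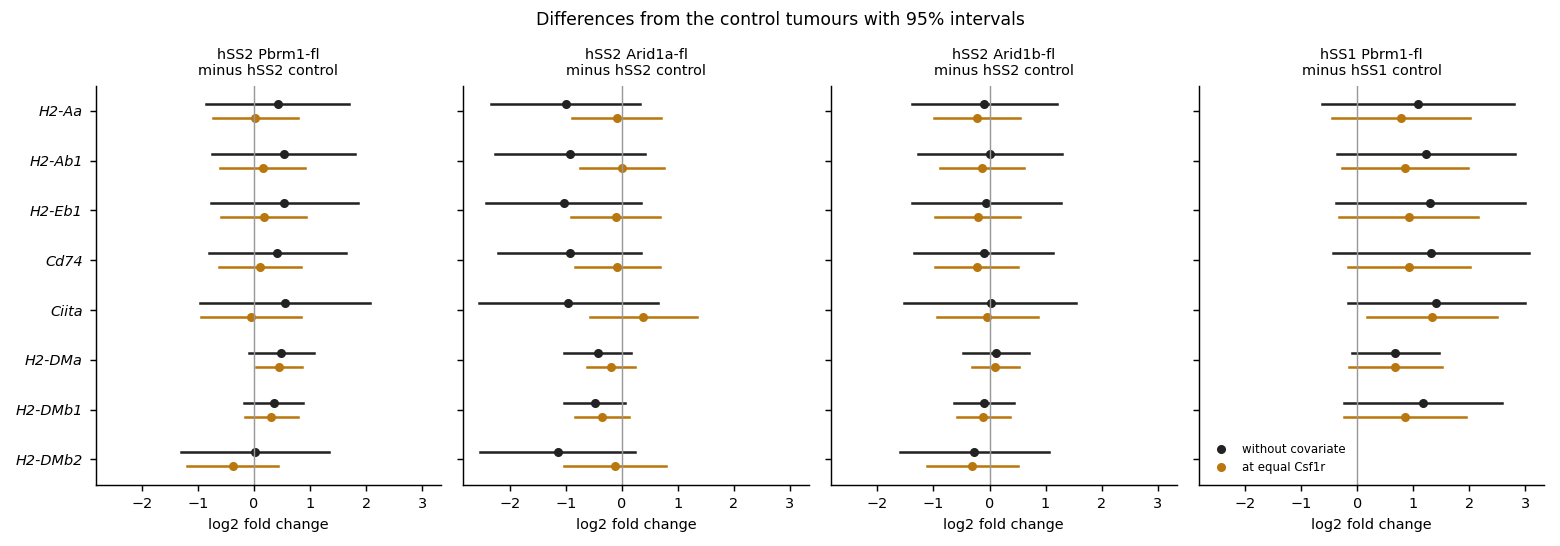
Log2 fold change of each gene from the control tumours of the same fusion, with 95% intervals, without a covariate and at equal Csf1r, in 4 comparisons. The intervals narrow at equal Csf1r in hSS2, and for H2-Aa in Arid1a-fl the estimate moves from -1 to -0.09.

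Against all hSS2 control tumours, the chain genes were nearer to 0 at equal Csf1r in Pbrm1-fl and Arid1a-fl tumours. Against control tumours of its own mouse number range, Pbrm1-fl went the other way. There, H2-Aa moved from 0.51 to 0.67 at equal Csf1r, H2-Ab1 from 0.59 to 0.77 and H2-Eb1 from 0.54 to 0.77. For Arid1a-fl against its own range, H2-Aa moved from -0.67 to -0.1. With log2 Csf1r in the model, H2-Aa was at 0.02 in Pbrm1-fl (95% interval -0.74 to 0.78), -0.09 in Arid1a-fl (-0.89 to 0.7) and -0.23 in Arid1b-fl (-0.99 to 0.54) against all control tumours. No member was called in any of the 3 (10.8%, 2.77% and 0.0349% of all genes called, edgeR), and the number with an unadjusted p under 0.05 was 1, 0 and 0. The 1 was H2-DMa in Pbrm1-fl, at 0.45 (interval 0.03 to 0.86, adjusted p = 0.155), where 5427 of 20083 genes had an unadjusted p under 0.05. Ciita was at -0.05, 0.38 and -0.04 in the 3 groups. In place of Csf1r the mean of 9 dendritic cell markers, chosen after the data were seen, put Ciita in Arid1a-fl at 0.67 (SE 0.19, adjusted p = 0.0444, edgeR), the 1 member called in any of these fits.

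In hSS1 the values at equal Csf1r stayed positive, from 0.68 for H2-DMa to 1.33 for Ciita (interval 0.17 to 2.49, unadjusted p = 0.0294, adjusted 0.204 by edgeR), with none of 7 called and 0.0562% of all genes called. Without hSS1 Pbrm1-fl 3, H2-DMa was at 0.28, H2-DMb1 at 0.45, H2-Ab1 at 0.46, H2-Eb1 at 0.53 and Ciita at 1.44. With the mean of all 9 dendritic cell markers as covariate, H2-Aa was at -0.01 and Ciita at 0.54. Only 3 of the 9 passed the filter in hSS1. The covariate also holds the others, which were at low counts, such as Clec9a at a median of 0.151 CPM. At equal Csf1r the difference between the fusions was 0.27 to 1.48, with none called, none with an unadjusted p under 0.05 and 4.5% of all genes called.

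Genes of the same pathway were followed from fixed lists. Of 4 other class II genes, H2-Oa and H2-Ob, the chains of the H2-DM inhibitor H2-O, passed the filter in hSS2. Neither was called between groups. Both rose with Csf1r, at slopes of 1.38 and 1.35, and H2-Ob had a median of 1.28 CPM in control tumours, 0.844 CPM in Pbrm1-fl, 0.71 CPM in Arid1a-fl and 2.4 CPM in Arid1b-fl. Of 6 genes of class II loading and turnover, 5 rose with Csf1r and none fell, where 14% of all genes rose. In Pbrm1-fl tumours 1 of 6 was called against control, where 7.35% of all genes were called. It was Ctsl, which encodes the lysosomal protease cathepsin L, lower by 0.69 on the log2 scale (adjusted p = 0.0382, edgeR). Ctsl was also lower against Arid1a-fl, by 0.99 (adjusted p = 0.0045).

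The promoter factors that recruit CIITA gave no call in its direction. Of 7 such genes none was called between groups in hSS2, none rose with Csf1r, and 3 fell. Of all genes, 24.1% were called on Csf1r in either direction and 14% rose. Rfx5, which encodes the DNA-binding subunit of RFX, fell by 0.21 on the log2 scale per doubling of Csf1r (adjusted p = 1.26e-05). Its rho with the mean of the members after group means were removed was -0.85 over the 37 hSS2 tumours, rank 19451 of 19473 genes, and that of Rfxap, which encodes another RFX subunit, was -0.69. In the 9 hSS1 tumours these were -0.23 and -0.28. The mean of the 6 synovial sarcoma markers gave a rho of -0.38 with the members in hSS2, but its genes were split. Fgfr2 was at -0.52, Sox2 at -0.43, Pdgfra at -0.26 and Bcl2 at -0.15, while Tle1 was at 0.22 and Twist1 at 0.36. What part the share of tumour cells has in these values was not tested.

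Among 11 Ciita inducers and their regulators 10 were tested. Against control, 2 were higher in Pbrm1-fl, where 7.35% of all genes were called. They were Socs1, a feedback inhibitor of cytokine signalling, by 0.75 (adjusted p = 0.0198) and the interferon regulatory factor Irf2 by 0.38 (adjusted p = 0.0275). Irf1, which activates Ciita under interferon, was at 0.54 (adjusted p = 0.0588). Against Arid1a-fl, 3 were higher in Pbrm1-fl, where 12.3% of all genes were called. They were Irf1 by 0.98 (adjusted p = 0.0017), Socs1 by 0.96 (adjusted p = 0.00589) and Irf2 by 0.43 (adjusted p = 0.018). Of 5 co-stimulation genes tested, Cd274, which encodes PD-L1, was higher against Arid1a-fl by 1.47 (adjusted p = 0.0243). Adjusted p-values here are from edgeR over all genes.

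Genes of class I peptide processing that lie between the class II genes on chromosome 17 were called where the class II genes were not. Of the 4 such genes and Brd2, 4 were higher in hSS2 Pbrm1-fl than in control tumours, where 7.35% of all genes were called. They were Tap1 by 0.83 (adjusted p = 0.00559) and Tap2 by 0.84 (adjusted p = 0.000566), which encode the peptide transporter, and Psmb8 by 1.45 (adjusted p = 0.00772) and Psmb9 by 1.2 (adjusted p = 0.00327), which encode immunoproteasome subunits. Brd2, a chromatin reader gene that lies in the same stretch, was at -0.1 (adjusted p = 0.392, edgeR). The same 4 were higher in Pbrm1-fl than in Arid1a-fl, by 1.25 to 2.12, where 12.3% of all genes were called. The difference between class I and class II responses was not itself tested.

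Most, but not all, markers of antigen-presenting cells varied with the class II genes in hSS2. The mean of the 9 dendritic cell markers had a Spearman's rho of 0.95 with the mean of the members over the 37 hSS2 tumours after group means were removed, T cell markers 0.9, macrophage markers 0.8, skeletal muscle markers 0.78, the 1 neutrophil marker tested 0.6, the 1 NK cell marker tested 0.57 and B cell markers 0.44. Endothelial markers were at -0.5. Single markers departed from their list in hSS2: Zbtb46, on the dendritic cell list, was at -0.04, Mertk, on the macrophage list, at -0.02 and Pax5, on the B cell list, at 0.11. Cd247, on the T cell list, was at -0.15. In the 9 hSS1 tumours 3 of 9 dendritic cell markers passed the filter, and their mean gave 0.9, with Itgax alone at 0.88, Zbtb46 at -0.35 and Batf3 at -0.53. The other hSS1 values were 0.6 for macrophage markers, -0.43 for T cell markers and 0.52 for endothelial markers. The T cell value in hSS1 comes from the 2 of 8 markers that passed the filter there, Cd4 (-0.33) and Cd247 (-0.42). All points share library and depth, and these values are descriptions without a test.

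**Figure D5:**
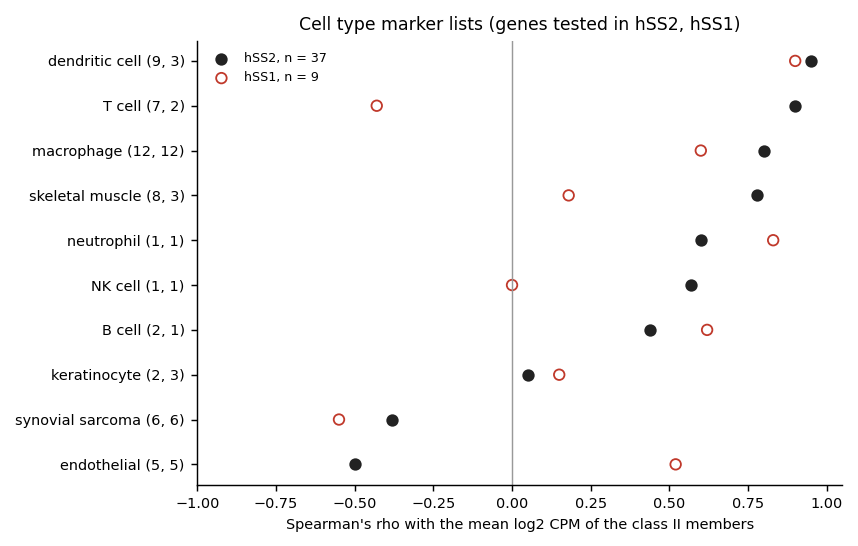
Spearman's rho between the mean log2 CPM of each cell type marker list and that of the class II genes, over 37 hSS2 tumours (filled) and 9 hSS1 tumours (open), group means removed, with the number of listed genes that passed the filter. The dendritic cell list lies at 0.95 and 0.9, where the hSS1 value follows 1 of 3 genes (Itgax, 0.88). The T cell list lies at 0.9 and -0.43, where the hSS1 value comes from 2 genes, Cd4 and Cd247.

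The summed dendritic cell markers were at 14 to 76.5 CPM in hSS2 control (median 23.5 CPM), 18.3 to 84.3 CPM in Pbrm1-fl (42.7 CPM), 8.03 to 26.2 CPM in Arid1a-fl (17.3 CPM) and 11.3 to 64.6 CPM in Arid1b-fl (35.8 CPM). As for H2-Aa, Arid1a-fl tumours lacked the high values. Of the 9 markers 1 was called in Pbrm1-fl against control, where 7.35% of all genes were called: the migratory dendritic cell receptor Ccr7 (2.41, adjusted p = 0.0433, edgeR). Its median was 3.8 CPM in Pbrm1-fl and 0.976 CPM in control, and its highest level, in 1 Pbrm1-fl tumour, was 54.2 CPM against at most 5.32 CPM in control. Against Arid1a-fl 2 were called, where 12.3% of all genes were: Ccr7 (3.55, adjusted p = 0.0112) and the transcription factor Zbtb46 (0.8, adjusted p = 0.0129). Both counts are near the share of all genes, and Zbtb46, whose group medians were 7.99 to 14.8 CPM in hSS2, is a large part of the summed level. Their part in the class II values was not tested.

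In hSS1 the dendritic cell sums were at 10.1 to 17.4 CPM in control and 7.83 to 29.4 CPM in Pbrm1-fl tumours, highest in Pbrm1-fl 3. Summed macrophage markers were at 136 to 306 CPM in hSS1 control and 113 to 261 CPM in hSS1 Pbrm1-fl, and at 148 to 774 CPM in hSS2 control, 96.3 to 1060 CPM in hSS2 Pbrm1-fl, 107 to 769 CPM in Arid1a-fl and 108 to 1020 CPM in Arid1b-fl.

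hSS2 control 4 and Pbrm1-fl 1 had the highest H2-Aa of their groups. Cd3e, a T cell receptor component, was at 7.49 CPM in the first and 9.62 CPM in the second. Skeletal muscle creatine kinase Ckm was at 1400 and 1630 CPM. Ckm was higher in tumours with less H2-Aa: 5880 CPM in hSS2 control 11 (H2-Aa 140 CPM), 4610 CPM in Arid1b-fl 1 (105 CPM) and 2080 CPM in Arid1b-fl 3 (205 CPM). Without hSS2 control 4 and Pbrm1-fl 1 no member was called in any hSS2 comparison. The part of T cells and muscle in the highest class II values was not tested.

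The 10 genes whose pattern over the 37 hSS2 tumours was most like the mean of the members were named by Spearman's rho after group means were removed, among 19473 genes with a 99th percentile of 0.86. Plbd1 came first at 0.96, followed by Kmo, C4b, Clec9a and Btla at 0.95 and Gpr82, Dpp4, Gcsam, Flt3 and Gm1966 at 0.94. Clec9a and Flt3 were on the dendritic cell list. C4b encodes a complement component, Kmo an enzyme of the kynurenine pathway, and Flt3 the receptor for a growth factor of dendritic cells. Over the 9 hSS1 tumours Plbd1 gave 0.82, Gm1966 0.68 and C4b 0.67, and the other 7 did not pass the filter there.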

How the data were processed

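Bulk RNA-seq of 46 tumours was analysed from 2 tables of gene counts as deposited by the authors. Per the study's methods the libraries were rRNA-depleted and directional and were sequenced as paired reads. The submitters' processing notes name STAR 2.7.11 and featureCounts 1.6.3 on mm10. The annotation release and strand setting of the counting were not given in the sources used here. The counts of each table went into edgeR 4.0.16 (R 4.3.3) for the quasi-likelihood F-test after filterByExpr and TMM scaling, with p-values adjusted by Benjamini-Hochberg over all genes tested and a threshold of 0.05. The 4 hSS2 groups shared 1 fit, the hSS1 groups another, and the difference between fusions used all 46 libraries. Values at equal Csf1r added log2 CPM of Csf1r (prior count 2) as a covariate, and slopes on it were tested within groups. Printed CPM use 1 TMM scaling over the 46 libraries. RPKM divides by exon length from GENCODE M21, which named 91.4% of hSS2 and 91.2% of hSS1 gene identifiers. Alternatives were DESeq2 1.42.0, its size factors in edgeR, no filter on low counts, plain library totals, only the groups compared, controls from the floxed group's own mouse number range, macrophage markers as covariate, and libraries left out.

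The members and gene lists were chosen with earlier results of these data known. Genes were named by this rule: the 8 members, Csf1r, H2-Ea-ps, H2-Oa and H2-Ob, from each pathway and marker list the genes that passed the test, up to 3 in each direction by adjusted p, with any further class II list gene that passed, and the 10 genes most like the mean of the members. Rfxap, the single synovial sarcoma markers and the levels of Cd3e and Ckm in single tumours were added after their values were seen. 1 item is not reported here. Each label holds a different number, read here as a mouse number, so each tumour was taken to be from an individual mouse. Each library was counted once. No pair of libraries agreed within sampling noise. Permutation tests of correlations were two-sided. In hSS1 they enumerated all orders. The tests were checked on simulated counts with known changes.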

Additional observations from a re-analysis of the deposited data

Results flagged for a closer look

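In 40 combinations of gene and group with 4 to 10 tumours, the highest and lowest tumour were compared with their nearest neighbour by Dixon's criterion on log2(CPM + 0.1). Chance finds about 1 in 20 groups, and 2 were found. H2-DMa in hSS1 Pbrm1-fl 4 was at 6.28 CPM where the next lowest tumour of the group was at 16.1 CPM, a gap of 0.858 of the group's range. H2-DMb1 in hSS2 Arid1a-fl 1 was at 4.7 CPM where the next lowest was at 12.5 CPM, a gap of 0.538 of the range. Arid1a-fl 1 also had the lowest ratio of chain genes to Csf1r among hSS2 tumours, 0.737.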

How the results depend on the processing

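No paired analysis was possible because the labels give no replicate number that groups share. Among counts of called members recomputed under alternatives other than leaving out 1 library, 85 were within 1.5 times the value given and 3 were not. For Pbrm1-fl minus Arid1a-fl in hSS2, the count of 0 became 2 with DESeq2, 1 in the fit of only these groups, and 0 to 2 when 1 library was left out. At equal Csf1r in Arid1a-fl it became 1 with the dendritic cell covariate (Ciita). Among counts with 1 library left out, 254 were within 1.5 times and 2 were not.

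Several values with no call changed sign. Among alternatives other than leaving out 1 library, sign changed in 9 of 56 values for Arid1b-fl minus control, 7 of 56 for Arid1a-fl minus Arid1b-fl, 6 of 56 for Pbrm1-fl minus Arid1b-fl and 3 of 56 for Pbrm1-fl minus control. With 1 library left out it changed in 46 of 168 values for Arid1b-fl minus control, 13 of 168 for Pbrm1-fl minus control, 15 of 168 for Pbrm1-fl at equal Csf1r and 5 of 72 for the difference between the fusions. No sign changed for Arid1a-fl minus control or for the slopes in hSS2. H2-DMb2 in hSS2 Pbrm1-fl minus control was at -0.47 against controls of the same mouse number range, -0.05 without the library labelled hSS2 control 9 and, chosen after seeing the data, -0.09 without hSS2 control 4 and Pbrm1-fl 1. In Pbrm1-fl minus Arid1a-fl with Csf1r as covariate, also chosen after seeing the data, H2-DMb2 was at -0.26 and Ciita at -0.43, and in Arid1a-fl minus Arid1b-fl 6 of 8 members turned positive (H2-Aa 0.13, Ciita 0.42). With 1 library left out, Pbrm1-fl minus control ranged from -0.08 to 0.7 for H2-Aa, -0.02 to 0.82 for H2-Ab1, -0.7 to 0.64 for H2-DMb2, -0.07 to 0.72 for Cd74 and -0.2 to 1.11 for Ciita, lowest without Pbrm1-fl 1 and highest without control 4. The H2-DMa slope on Csf1r in hSS1 ranged from -0.47 to 0.2. These causes were not tested.

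Within-group spread of the chain genes and of Ciita limited all group comparisons, and H2-DMb2 was limited by depth in hSS1. The p-values of edgeR and DESeq2 set a difference or slope against the spread between tumours, and the hSS1 groups of 5 and 4 leave wide intervals.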

Other observations

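H2-Ea-ps, the polymorphic pseudogene of the I-E alpha chain, had no count in 45 of 46 libraries, and 53 counts (4.49 CPM) in hSS1 control 1. H2-Eb1 in that tumour was at 8.73 CPM, within the range of the hSS1 control tumours. Skeletal muscle markers had a Spearman's rho of 0.78 with the mean of the members in hSS2 and 0.18 in hSS1, where 3 of 8 passed the filter. Their summed level ranged from 12 to 39400 CPM in hSS2 control, 6.4 to 12900 CPM in hSS2 Pbrm1-fl and 6.77 to 553 CPM in hSS1 control. The mean of the keratinocyte markers gave a rho of 0.05 with the members in hSS2 and 0.15 in hSS1.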
